A study of Mus musculus with 2 samples.

Results

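Divergent head-to-head promoters are stretches of DNA from which 2 genes on opposite strands are transcribed away from each other. A peak of NRF1 chromatin immunoprecipitation was counted at such a promoter when its summit lay between the transcription start sites (TSSs) of a protein-coding pair at most 1000 bp apart, or within 200 bp outside them. The TSS was the outer 5′ end of each RefSeq gene of GRCm38.p6 (mm10). By this rule 570 of the 17256 optimal peaks on chromosomes 1 to 19 were members, which is 3.30% of them (95% Wilson interval 3.05 to 3.58%), and they lay at 521 of 721 divergent pairs. The rule used positions and no signal values. Most of the occupied pairs, 473 of 521, held 1 member peak, 47 held 2 and 1 held 3.

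NRF1, nuclear respiratory factor 1, was mapped in CH12.LX, an immortalized line from a mouse B-cell lymphoma, labelled female and of strain B10.H-2aH-4bp/Wts. The libraries were 2 biological replicates, numbered 1 and 2, with an antibody to NRF1, and they formed 1 group with no treatment in the labels. The design therefore held no comparison between conditions, and the results describe 1 line grown in culture. No expression was measured in the series, so the cell type could not be set against B-cell marker genes.

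NRF1 is a homodimeric DNA-binding protein that recognizes a GC-rich palindrome and is best known for promoters of nuclear genes that encode mitochondrial proteins. Divergent promoters are common in mammalian genomes, where they are often CpG islands without a TATA box, and many serve genes of DNA repair, mitochondria and other housekeeping functions. One bound factor between or beside the start sites sits close to the core promoters of both genes.

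The DNA of 14 pairs is printed because it shows how the NRF1 site sits between or beside the start sites. All stretches are the plus strand of GRCm38.p6, cut from the RefSeq promoter windows, which run from 250 bp before to 50 bp after each TSS. The first set has an exact NRF1 site, which was searched on both strands as GCGCACGCGC or GCGCATGCGC and stands in capitals. It may read as its reverse complement on the plus strand.
Lsm7/Sppl2b (chr10:80855194-80855273, plus strand): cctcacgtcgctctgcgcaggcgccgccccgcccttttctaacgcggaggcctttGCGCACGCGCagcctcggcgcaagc
Atp5c1/Kin (chr2:10080425-10080566, plus strand): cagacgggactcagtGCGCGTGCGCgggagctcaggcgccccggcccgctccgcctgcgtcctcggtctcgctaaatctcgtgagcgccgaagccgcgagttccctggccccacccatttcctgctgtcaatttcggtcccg
Arl16/Hgs (chr11:120467585-120467649, plus strand): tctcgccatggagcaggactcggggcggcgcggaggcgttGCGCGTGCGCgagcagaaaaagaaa
Lig4/Abhd13 (chr8:9977665-9977749, plus strand): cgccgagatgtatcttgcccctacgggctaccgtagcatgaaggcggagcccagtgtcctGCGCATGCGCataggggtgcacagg
Sdhd/Timm8b (chr9:50603834-50603943, plus strand): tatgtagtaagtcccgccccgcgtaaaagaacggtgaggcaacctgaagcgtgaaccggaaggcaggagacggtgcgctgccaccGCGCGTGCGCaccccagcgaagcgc
Wdhd1/Socs4 (chr14:47276842-47276935, plus strand): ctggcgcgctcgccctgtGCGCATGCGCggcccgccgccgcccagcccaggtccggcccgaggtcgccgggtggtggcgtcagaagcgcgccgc
Mrpl32/Psma2 (chr13:14613022-14613257, plus strand): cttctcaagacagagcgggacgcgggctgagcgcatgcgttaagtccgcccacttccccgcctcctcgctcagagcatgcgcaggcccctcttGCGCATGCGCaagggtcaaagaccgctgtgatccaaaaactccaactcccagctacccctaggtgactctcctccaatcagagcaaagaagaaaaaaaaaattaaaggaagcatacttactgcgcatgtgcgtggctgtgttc
Iars2/Bpnt1 (chr1:185329369-185329443, plus strand): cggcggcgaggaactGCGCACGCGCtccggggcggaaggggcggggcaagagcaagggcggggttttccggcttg

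In Lsm7/Sppl2b the start of Lsm7 is base 16 and that of Sppl2b base 49 of the printed stretch, the summit is base 40 and the site begins at base 56. In Lig4/Abhd13 the starts are bases 16 and 53, and the summit and the first base of the site are both base 61. In Atp5c1/Kin the site begins at base 16 and the summit is base 22, inside Atp5c1, whose start is base 86, while Kin starts at base 127. In Mrpl32/Psma2 the site lies between starts 205 bp apart, and begins at base 94. Eif3k/Map4k1 is shown because its windows hold 2 exact sites, which begin on either side of the start of Map4k1 at base 176.
Eif3k/Map4k1 (chr7:28981875-28982114, plus strand): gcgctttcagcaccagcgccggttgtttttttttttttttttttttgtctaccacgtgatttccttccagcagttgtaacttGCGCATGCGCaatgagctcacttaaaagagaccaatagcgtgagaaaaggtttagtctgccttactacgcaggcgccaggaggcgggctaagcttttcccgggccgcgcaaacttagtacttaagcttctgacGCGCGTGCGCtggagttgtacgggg

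The next set has strong peaks without an exact site. In Ndufa8/Morn5 and Gtf3c1/D430042O09Rik the capitals mark the stretch nearest to the summit that differs from the site at 1 base. The windows of Anxa5/1810062G17Rik held neither form, so its stretch has no capitals.
Ndufa8/Morn5 (chr2:36049323-36049488, plus strand): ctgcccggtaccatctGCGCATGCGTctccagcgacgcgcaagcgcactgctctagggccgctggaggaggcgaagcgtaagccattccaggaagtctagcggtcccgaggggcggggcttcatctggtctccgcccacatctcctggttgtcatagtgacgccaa
Gtf3c1/D430042O09Rik (chr7:125707673-125707870, plus strand): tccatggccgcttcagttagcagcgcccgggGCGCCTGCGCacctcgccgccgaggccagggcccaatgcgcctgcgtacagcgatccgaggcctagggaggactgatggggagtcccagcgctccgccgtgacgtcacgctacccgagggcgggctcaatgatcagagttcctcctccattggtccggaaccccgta
Anxa5/1810062G17Rik (chr3:36475872-36475952, plus strand): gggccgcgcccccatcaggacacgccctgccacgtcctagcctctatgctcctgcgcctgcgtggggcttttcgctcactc

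The last set comes from pairs without a member peak, where Ndufb3 is a subunit gene of the respiratory chain and Ndufaf7 a gene of its assembly factors. In Fam126b/Ndufb3 the capitals mark a stretch with 1 mismatch, and in Cebpz/Ndufaf7, of which 1 gene had a window, neither form was found.
Fam126b/Ndufb3 (chr1:58586301-58586412, plus strand): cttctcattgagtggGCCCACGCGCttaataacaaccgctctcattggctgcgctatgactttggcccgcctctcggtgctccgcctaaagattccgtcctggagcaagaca
Cebpz/Ndufaf7 (chr17:78937055-78937121, plus strand): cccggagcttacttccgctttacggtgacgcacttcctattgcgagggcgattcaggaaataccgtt

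Signal at the divergent promoters fell mostly into a weak and a strong class. The values are the signal column of the authors' peak list, for which no scaling is stated, so they only order peaks within a list. Among the 570 members 293 had a signal up to 100, 103 lay between 100 and 400, and 174 were above 400. The median was 90.1, with quartiles of 39.6 and 459 and a range from 4.71 to 683. In the other 6364 promoter peaks, those with a summit within 500 bp of a TSS, the median was 68.1 with quartiles of 31.1 and 366. The members thus included a larger part of strong peaks: 30.5% were above 400 (26.9 to 34.4%), against 23.1% of the other promoter peaks (22.1 to 24.2%) and 13.2% of all optimal peaks. Other peaks within 200 bp of a TSS, a limit nearer to that of the members, had an upper quartile of 418. Their share above 400 was not computed.

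The difference was small beside the spread of the peaks. Of the members, 55.3% exceeded the median of the other promoter peaks (51.2 to 59.3%), and 51.6% exceeded the median of 79.3 in the other peaks within 200 bp of a TSS (47.5 to 55.7%), an interval that includes an even split. In the replicates, where the value is that of the strongest overlapping relaxed peak, the median was 54.0 in replicate 1 and 44.0 in replicate 2 for members. For the other promoter peaks it was 40.6 in replicate 1 and 33.5 in replicate 2. The difference of these medians was 12.0 ± 2.08 (SD, n = 2), in the same direction in both replicates. Other peaks within 200 bp of a TSS had medians of 46.5 in replicate 1 and 38.4 in replicate 2. These lie closer to the member medians, so the size of the difference depends on the distance limit of the other peaks. The peaks and their classes were not tested against each other, since peaks of the same libraries are not replicates.

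**Figure D1:**
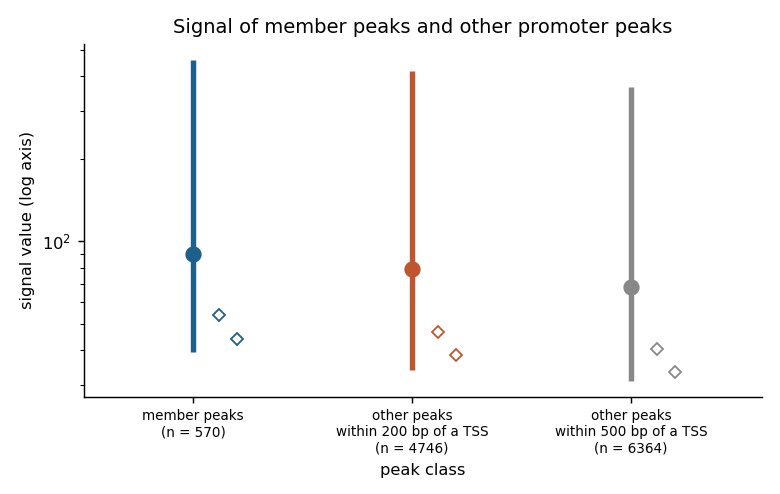
Signal value (log axis) of member peaks, other peaks within 200 bp of a TSS and other peaks within 500 bp of a TSS. Filled circles are medians and bars the quartiles in the optimal set, and open diamonds are the medians in replicate 1 (left) and replicate 2 (right). The member median of 90.1 stands above 79.3 and 68.1, and the bars overlap over most of their length.

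Nearly all strong members recurred in both replicates, and fewer of the weak ones did. A member was counted as recurrent when it overlapped 1 of the 17256 peaks of highest signal in each replicate's own list. The optimal set was itself selected from both replicates, so high recurrence of its strong peaks is largely built in. It is no separate support for them. This held for 526 of 570 members, 92.3% (89.8 to 94.2%), against 86.1% of the other promoter peaks (85.2 to 86.9%) and 70.2% of all optimal peaks. Among members above the median signal of the optimal set 435 of 436 recurred, and 91 of the 134 weaker members did. The rank correlation of the replicate signals over members was 0.931 (Spearman's rho, n = 569), 0.952 in the stronger and 0.210 in the weaker members, whose values span a narrower range. Summits called in the separate replicates lay a median of 9 bp apart for the stronger members and 53 bp apart for the weaker ones, so positions within a pair are less certain for weak peaks.

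Replicate values were not all separate. In 80 members the replicate peak was also that of another optimal peak in 1 or both replicates, and 9 members shared their interval with another member summit. For 41 members the other peak was a stronger one, so that a weak summit took the replicate value of its neighbour. At Atpif1/Dnajc8 summits of 482 and 15.8 had the same 241 in replicate 1 and 242 in replicate 2. With each replicate peak counted once, for its strongest optimal peak, an alternative added after the data were seen, 492 of 570 members recurred, 86.3% (83.3 to 88.9%), against 80.8% of the other promoter peaks (79.8 to 81.7%). Of the weaker members 65 of 134 then recurred and of the stronger ones 427 of 436. Without the 41 members the rank correlation of the replicates was 0.941 over members and 0.0456 in the weaker ones (n = 100), and the member medians were 64.0 in replicate 1 and 50.6 in replicate 2. The other promoter peaks, treated likewise, had medians of 44.3 in replicate 1 and 36.2 in replicate 2.

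The strongest divergent peaks lay at pairs with mixed functions. Mob3a/Izumo4 (chromosome 10, TSSs at 80701820 and 80702015) had the highest signal, 683, with 332 in replicate 1 and 353 in replicate 2 (343 ± 15.4, SD, n = 2), and its summit lay 87 bp inside Izumo4. Ift80/Smc4 (chromosome 3, 69004680 and 69004738), which pairs a subunit of intraflagellar transport with a core subunit of condensin, had 678, with 330 and 353 in the replicates and the summit 128 bp inside Smc4. Haghl/Ccdc78 (chromosome 17, 25785586 and 25786580) had 674, with 340 and 337 in the replicates. Its starts are 994 bp apart, and the summit lay 22 bp upstream of Haghl and 972 bp upstream of Ccdc78. Summits of these pairs thus lay in the plus-strand gene or, in the wide pair, beside 1 start only.

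Lsm7/Sppl2b joins a subunit of the LSm ring of U6 small nuclear RNA with an intramembrane protease. Its signal was 662, with 325 in replicate 1 and 338 in replicate 2, and the summit lay between the starts, 9 bp from that of Sppl2b. Atp5c1/Kin, with the gamma subunit of ATP synthase and a DNA-binding protein, had 661, with 318 and 346, and the summit 64 bp inside Atp5c1. Ndufa8/Morn5, with an accessory subunit of complex I, had 657, with 323 and 336, and the summit 11 bp upstream of Ndufa8. Arl16/Hgs, of which Hgs encodes a part of the endosomal sorting complex ESCRT-0, had 653 with starts only 5 bp apart. The other 5 of the 12 strongest pairs were Heatr5b/Gpatch11 (661), Fam227a/Cby1 (659), Anxa5/1810062G17Rik (653), Cntrob/Trappc1 (651) and Gtf3c1/D430042O09Rik (646). Across the 12 strongest pairs the replicate values ran from 317 to 353 in the 2 libraries.

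The 5 weakest occupied pairs were Ap3m1/Adk (6.40), Tfpt/Prpf31 (6.64), Cdiptos/Cdipt (8.11), Cinp/Tecpr2 (9.31) and Btf3l4/Txndc12 (10.03). Ap3m1 encodes a subunit of the AP-3 adaptor and Adk adenosine kinase, and the replicates had 7.94 and 8.73 there. At Cdiptos/Cdipt the replicates had 37.5 and 26.5, well above the 8.11 of the optimal set, where the replicate value is that of the strongest relaxed peak that overlaps. In 3 of these 5 pairs the summit lay inside the plus-strand or minus-strand gene by 97 bp or more.

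A start in a divergent pair carried NRF1 more often than other starts. Counted in 1 window for all genes, a summit within 200 bp of the gene's own TSS, 914 of 1442 divergent genes were occupied, 63.4% (60.9 to 65.8%), against 4716 of 18921 other genes, 24.9% (24.3 to 25.5%). Over all protein-coding genes the share was 27.6%. The genes of a pair can share 1 peak, so these intervals are too narrow for the divergent genes. Base composition moved with this result. Of the divergent genes with a promoter window, 84.0% had a CpG-rich one (GC above 50% and a ratio of observed to expected CpG above 0.6), against 43.8% of other genes. Within CpG-rich windows 70.8% of 929 divergent genes were occupied (67.8 to 73.7%) and 54.1% of 5744 other genes (52.8 to 55.4%). Within the remaining windows the shares were 33.9% of 177 divergent genes (27.3 to 41.1%) and 8.14% of 7367 other genes. The share was thus higher for divergent genes in both classes, by fewer percentage points than over all genes.

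Pairs of all spacings carried peaks, and signal had almost no rank correlation with spacing. Spacing ran from 1 to 1000 bp over the 721 pairs. Of all pairs, 72.3% held a member peak (68.9 to 75.4%). The share was 74.2% of 360 pairs spaced up to 100 bp, 70.5% of 156 spaced over 100 and up to 200 bp, 68.8% of 77 up to 300 bp, 81.5% of 65 up to 500 bp and 60.3% of 63 up to 1000 bp. A summit counts within the spacing plus 200 bp on each side, so the wider classes have longer windows. The shares are not corrected for this. The 95% intervals of neighbouring classes overlapped, although those of the widest 2, 70.4 to 89.1% and 48.0 to 71.5%, only at their edges.

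The median signal of the strongest peak of each pair was 104 in the closest class, then 261, 136, 135 and 59.6 in the classes of wider spacing. The first 4 of these medians fall in the thinly filled range between weak and strong peaks, where small shifts in the balance of the classes move a median far, and the last lies among the weak peaks. The share of these peaks above 400 varied less, with 34.5%, 36.4%, 26.4%, 34% and 23.7% in the same order. The replicate medians had the same highest class, 146 in replicate 1 and 115 in replicate 2 at over 100 and up to 200 bp, and the same lowest one, 28.5 in replicate 1 and 31.5 in replicate 2 at over 500 bp. Over all 521 occupied pairs the rank correlation of signal with spacing was -0.022, and it was -0.040 in replicate 1 and -0.019 in replicate 2. All pairs come from the same 2 libraries.

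**Figure D2:**
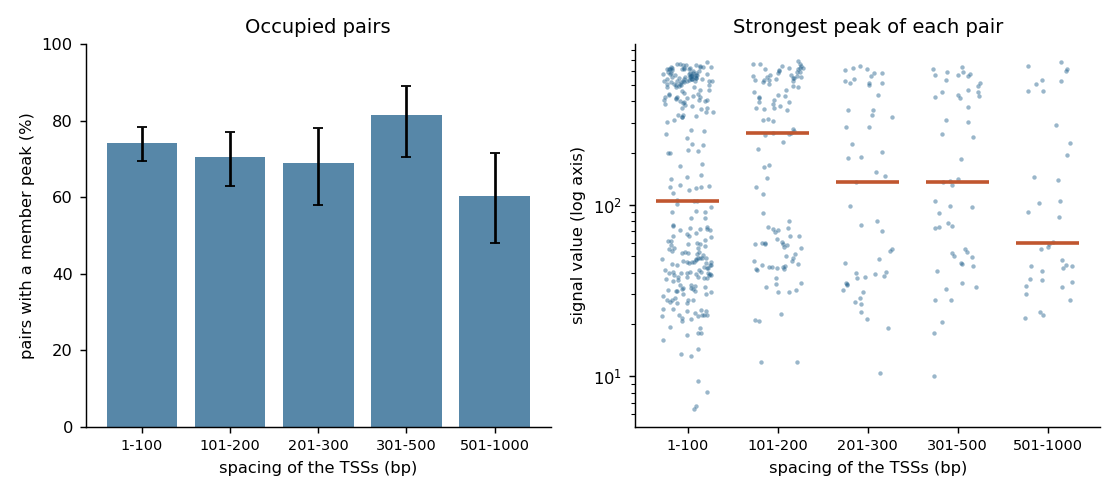
Left, percent of divergent pairs with a member peak in 5 classes of TSS spacing (bp), with 95% Wilson intervals. The window in which a summit counts is longer in the wider classes. Right, signal value (log axis) of the strongest peak of each occupied pair (points) with the class median (line). Points form a weak and a strong cloud in every class, and the medians of 104 to 261 lie between the clouds, while that of 59.6 in the widest class lies in the weak cloud.

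Of the 10 pairs with starts 1 or 2 bp apart 7 carried a peak. The 3 without one were Smpd2/Ppil6 at 1 bp and Zfp944/Zfp758 and 1110032A03Rik/Fdxacb1 at 2 bp. Among the occupied ones Capza1/St7l (72.0), Ears2/Ubfd1 (64.6), Klhl18/Kif9 (417) and Tcta/Rhoa (524) have starts 1 bp apart. Emc3/Fancd2 (33.9), Gak/Tmem175 (635.5) and Snx5/Mgme1 (168.4) have starts 2 bp apart. Ears2 encodes the mitochondrial glutamyl-tRNA synthetase, Rhoa a small GTPase of the cytoskeleton and Fancd2 a protein of the Fanconi anaemia pathway. Tcta/Rhoa had 248 in replicate 1 and 277 in replicate 2 with the summit 77 bp inside Tcta, whereas Emc3/Fancd2 had 16.3 in replicate 1 and 18.4 in replicate 2 with the summit 8 bp inside Emc3. Pairs of nearly the same spacing thus held weak and strong peaks.

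In wide pairs summits lay mostly away from the centre of the interval. Of 570 summits, 244 (42.8%, 38.8 to 46.9%) lay between the starts, 162 inside the minus-strand gene and 164 inside the plus-strand gene, in nearly equal numbers. The median distance to the nearest TSS was 35 bp in members and 52 bp in the other peaks within 200 bp of a TSS. The limits of 200 bp largely set these values. A member lies by definition at a pair of starts and was measured to the nearer of them, which shortens its distance by construction. The other peaks need no such pair, so the values do not show tighter placement at divergent starts. Of the 244 summits between the starts 94 were in the part next to the minus-strand gene, 61 in the middle part and 89 in the part next to the plus-strand gene, with the interval cut into 3 equal parts. In pairs spaced more than 300 bp apart 12 of 70 such summits were in the middle part, 17.1% (10.1 to 27.6%).

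The share of summits between the starts was 27.8%, 50.4%, 61.0%, 66.1% and 59.2% over the classes of rising spacing. The interval itself makes up 10.6%, 26.4%, 38.4%, 47.6% and 64.3% of the window in which a summit counts. The share exceeded that of the window up to 500 bp and not beyond. Members between the starts had a median signal of 156 and members inside a gene 70.4. In replicate 1 these medians were 106 and 39.9, and in replicate 2 they were 82.1 and 37.3, so the order was the same in both. In 4 groups of members of about equal size, from the strongest down, 49.7%, 48.6%, 41.3% and 31.7% of summits lay between the starts. Weak summits are less certain in position, and weaker second summits of a pair are counted in these medians and shares. What either adds to the order by signal was not tested. With only the strongest peak of each pair 44.3% of summits lay between the starts. The share over all members depends on which start sites are used. With the starts of the RefSeq promoter table, chosen as an alternative after the data were seen, the share was 55.3%. On mm9, where peak set, build and starts (GENCODE) all differ, it was 56.4%.

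**Figure D3:**
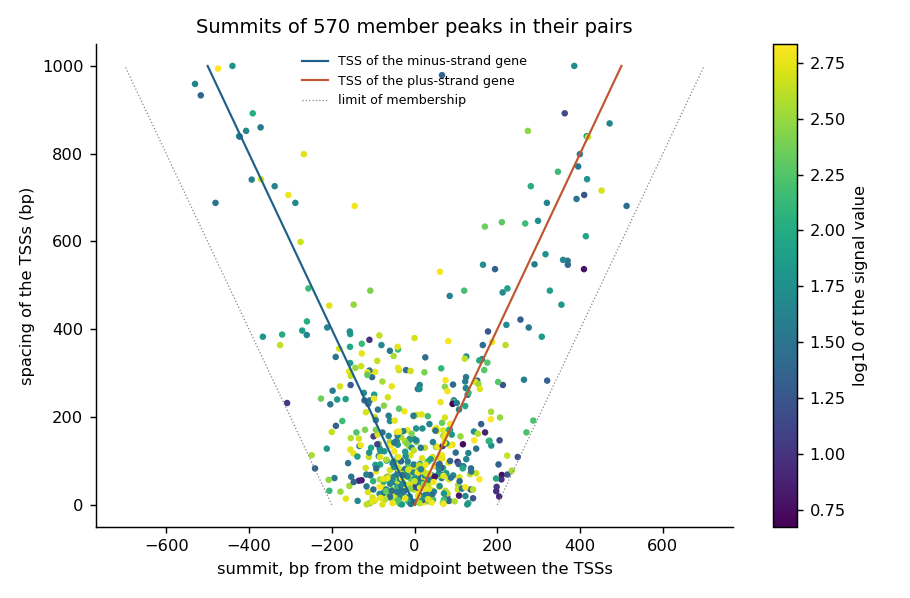
Position of the 570 member summits (bp from the midpoint between the TSSs) against TSS spacing (bp), coloured by the log10 of the signal value. Solid lines mark the TSSs and dotted lines the limit of 200 bp outside them. In wide pairs the summits follow the lines, and 12 of the 70 summits between starts more than 300 bp apart are in the middle part.

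Wide pairs could hold a separate peak at each start. Ccdc47/Ddx42, with starts 364 bp apart, had 436 with the summit 143 bp inside Ccdc47 and 404 with the summit 38 bp inside Ddx42, an RNA helicase gene. Both peaks recurred, with 214 and 220 in the replicates at Ccdc47 and 222 and 182 at Ddx42. The other pairs of the highest summed signal had unequal peaks. Cep170/Sdccag8, both centrosomal genes, had 617 between the starts and 28.9 inside Sdccag8. Cep57l1/Sesn1, of which Sesn1 encodes sestrin 1, had 601 next to Cep57l1 and 17.9 next to Sesn1. Cfap52/Stx8 had 524 with the summit on the start of Cfap52, a gene of motile cilia, and 62.0 next to Stx8, which encodes a syntaxin. Safb2/Safb had 2 summits of 422 and 189 in 1 shared interval, so their replicate values cannot be separated. More than 1 peak also occurred in close pairs: in 14 of 267 occupied pairs spaced up to 100 bp, against 11 of 38 over 500 bp. The window in which a summit counts is the spacing plus 200 bp on each side. Wide pairs thus have more room for a second peak by construction, and the 2 shares are not like measures. Over the pairs with 2 or 3 peaks the median member signal was 42.3, against 136 at pairs with 1 peak. The first median counts every peak of a pair, weaker summits included, so the 2 values do not compare the strongest peaks.

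The NRF1 site went with signal at the divergent pairs. Both genes had a promoter window in 466 of the 721 pairs, and the counts of pairs by site are over these. An exact site was found in 41 of the 350 pairs with a member peak, 11.7% (8.75 to 15.5%), and in 0 of 116 pairs without one (Wilson upper bound 3.21%). Over promoter windows it stood in 7.59% of those of divergent genes (6.18 to 9.31%), against 3.20% of those of other genes (2.92 to 3.52%) and 3.55% of all 14217 windows. Among occupied genes alone the shares were 10.9% of 718 windows of divergent genes and 9.93% of 3706 windows of other genes, with overlapping intervals. The windows of a pair overlap where the starts are close, so 1 site can stand in both.

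Pairs with an exact site had strong peaks. Their strongest peak had a median of 586 (range 230.6 to 674, n = 41), and the replicate medians were 284 in replicate 1 and 293 in replicate 2. The 103 pairs with a form that differed at 1 base had a median of 462, and the 206 pairs with neither had 54.5, with 29.6 in replicate 1 and 28.2 in replicate 2. The 6 pairs with 2 or more exact sites had a median of 598 and the 35 pairs with 1 had 555. In 4 groups of occupied pairs, by signal from the strongest down, 30 of 89, 11 of 93, 0 of 86 and 0 of 82 pairs held the exact site. Strong peaks without either form also occurred, as at Anxa5/1810062G17Rik with 653. The match is to these letters in these windows only.

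The sites lay under the summits. Over the 56 occupied pairs with an exact site in any window, those with 1 window included, the nearest site had its centre a median of 15.5 bp from the summit of the strongest peak, within 20 bp in 31 of 56 pairs and within 50 bp in 49 of 56. Of 67 exact sites 66 lay inside that peak. Sites were searched only in windows at the same starts near which member summits must lie, so this count is largely set in advance. The site of Arl16/Hgs was 5.5 bp from the summit, which is base 40 of its printed stretch. That of Sdhd/Timm8b was 2.5 bp from the summit, which is base 88 of its printed stretch. The 1 site outside the peak, at Tmem69/Gpbp1l1, was 509.5 bp from the summit. Of the sites inside, that of Tcta/Rhoa was farthest from its summit, at 221.5 bp.

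**Figure D4:**
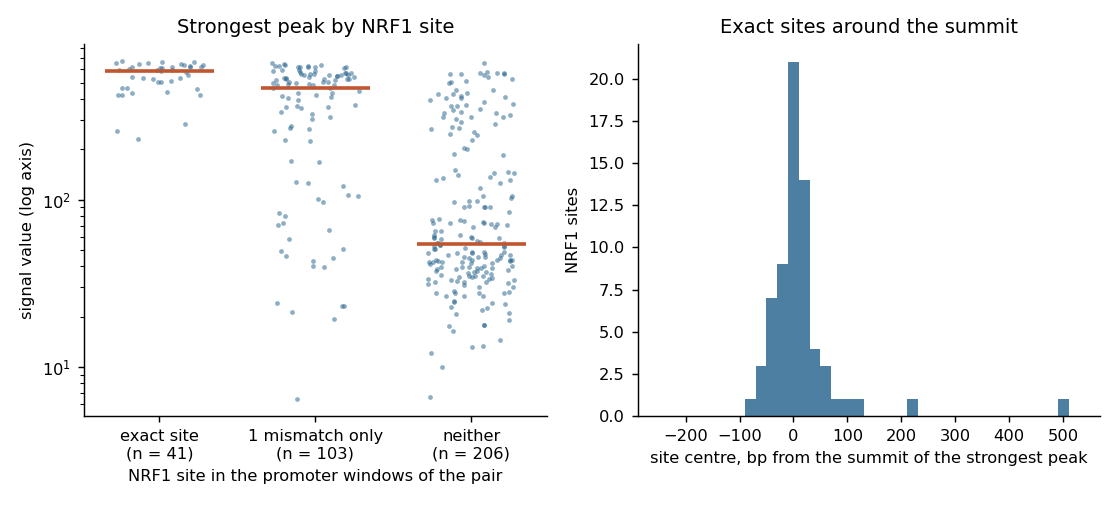
Left, signal value (log axis) of the strongest peak of occupied pairs with both promoter windows, by exact NRF1 site, form with 1 mismatch only, or neither; lines are medians of 586, 462 and 54.5. Right, number of exact sites by distance (bp) from the summit of the strongest peak in bins of 20 bp; most lie close to 0, and 1 lies at 509.5 bp.

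Other motifs of promoters were counted in the same windows on both strands, as spelled here. The ETS core CCGGAA stood in 44.1% of windows of divergent genes and 17.6% of those of other genes. The YY1 motif AAGATGGC stood in 8.68% and 2.83%, the SP box GGGCGG in 68.2% and 45.6%, the CREB core TGACG in 41.8% and 22.9%, and the NFY box CCAAT in 45.1% and 39.2%, in the same order. The TATA box TATAAA was rarer at divergent genes, with 5.15% of windows against 14.9%. Among occupied genes alone the differences were smaller for all 6 motifs, in percentage points. The ETS core stood in 48.7% of occupied divergent and 33.5% of other occupied windows, the YY1 motif in 11.3% and 6.45%, and the CREB core in 45.8% and 37.3%, with intervals that do not overlap. The SP box stood in 72.7% and 73.0%, the NFY box in 43.9% and 39.2% and the TATA box in 3.76% and 5.40%, with overlapping intervals. The windows of a pair can overlap and count the same motif copy in both, so the intervals of divergent genes are too narrow. Overlap of intervals therefore does not settle which motifs differ. Divergent windows are richer in CpG, which moves with the GC-rich motifs, and its part in these shares was not tested. A match is a description of letters and not of a bound site. Of these, the SP box and the ETS core can overlap other GC-rich sequence.

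Functions of the pairs were read from 27 lists of gene symbols. Nuclear genes of the respiratory chain and ATP synthase, the classical NRF1 targets, were often in divergent pairs: 29.8% of the 84 subunit genes were, against 7.08% of all genes. A member peak was present at 21 of the 25 such pairs (84.0%, 65.3 to 93.6%), against 72.3% of all pairs. The median signal of the 21 was 313, and 9 exceeded 400. Genes of DNA repair and checkpoint control were in pairs as often, 34.8% of 115, and 29 of their 39 pairs had a peak. Of 1102 olfactory receptor genes 2 were in a pair, 0.181%, and that pair, Olfr181/Olfr183, had no peak.

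Occupancy of the pairs with a mitochondrial gene and of the other pairs had overlapping intervals. Of the 79 pairs with a gene on any of 7 mitochondrial lists 61 had a peak, 77.2% (66.8 to 85.1%), against 460 of 642 pairs without such a gene, 71.7% (68.0 to 75%). Their median signals were 117 and 126. Mitochondrial ribosomal proteins had a peak at 16 of 20 pairs with a median of 219, import and chaperone genes at 4 of 7, translation factors and tRNA synthetases of mitochondria at 7 of 10, and mitochondrial DNA maintenance genes at 4 of 4. Pairs with no listed gene had a peak in 243 of 360 cases, 67.5% (62.5 to 72.1%). The lists were chosen with results of these data known, and no list was tested.

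Within the respiratory chain list the members ranged over the whole scale of signal: 9 pairs were above 400, 5 between 100 and 400 and 7 up to 100, and 4 had no member peak. Genes with Nduf symbols, Ndufa4 included, were counted here as complex I and stood in 14 pairs. Ndufa8/Morn5 (657), Ndufs6/Mrpl36 (597), Ndufa5/Asb15 (535), Vmac/Ndufa11 (507) and Wdr4/Ndufv3 (407) were strong and Mrpl47/Ndufb5 (248) lay between the classes. Rps28/Ndufa7 (58.6), Ndufs3/Kbtbd4 (51.9), Ndufs1/Eef1b2 (46.4), Ndufa2/Ik (40.2) and Tatdn1/Ndufb9 (30.8) were weak. Subunits of complex I thus stood in both classes. Of succinate dehydrogenase, Sdhd/Timm8b had 609 and Sdha/Ccdc127 587. The 3 pairs of complex III, Uqcrb/Gm10767 (393), Uqcrh/Lrrc41 (313) and Uqcr10/Zmat5 (313), all lay between the classes. ATP synthase ranged from Atp5c1/Kin (661) over Atp5h/Kctd2 (546) and Atp5pb/Wdr77 (146) to Atp5md/Pdcd11 (40.1). Emc8/Cox4i1, with a subunit of cytochrome c oxidase, had 12.1, with 7.59 and 9.23 in the replicates, and was not among the top peaks of either replicate. The 4 pairs without a member peak hold Ndufb3, Sdhc, Ndufb1 and Ndufa4.

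The leading pairs of the other lists were picked by signal, so their values do not stand for the lists. Over all occupied pairs the median signal was 125, and it was 310 for ribosome biogenesis and 58.8 for cytosolic initiation factors and tRNA synthetases. It was 84.4 for the proteasome and 105 for nuclear pores and transport. Bop1/Hsf1 (622), of which Bop1 encodes a factor of ribosome assembly, led ribosome biogenesis, where 15 of 17 pairs had a peak. Eif3k/Map4k1 (641) led the initiation factors and tRNA synthetases of the cytosol, with 11 of 13. RNA polymerases and general factors had 19 of 20 (95%, 76.4 to 99.1%) with a median of 55.1, the exception being Gtf3c4/Ddx31, and Gtf3c1/D430042O09Rik led them. Mrpl49/Fau (562.4) joins a ribosomal protein of mitochondria with one of the cytosol. All 9 pairs with a proteasome gene had a peak, led by Mrpl32/Psma2 (510, with 259 and 254 in the replicates), as did all 5 with a gene of nuclear pores and transport, led by Ranbp1/Trmt2a (593). Wilson intervals on such small lists are wide, with lower bounds of 70.1% for the proteasome and 56.6% for nuclear transport. For ribosome biogenesis the lower bound was 65.7%, and for cytosolic initiation factors and tRNA synthetases 57.8%. These bounds all lie below the 72.3% of all pairs that held a peak, so these counts do not set the lists apart.

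Lig4/Abhd13 (622) led the DNA repair list, with the ligase of non-homologous end joining, and Atm/Npat (619), which pairs a checkpoint kinase with a coactivator of histone genes, came next, with 307 in replicate 1 and 315 in replicate 2. Brca1/Nbr1 had 395, with 208 and 190 in the replicates and the summit 78 bp inside Brca1. Wdhd1/Socs4 (623) led DNA replication, where 7 of 11 pairs had a peak. Zswim7/Ttc19 (568.4) led the assembly factors of the respiratory chain, and Trappc13/Trim23 (634) the ubiquitin enzymes. In 10 pairs both genes stood on 1 list, and 6 of them had a peak, among them Zfp784/Zfp580 (586) of zinc finger genes and Mrpl46/Mrps11 (32.4) of the mitochondrial ribosome.

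**Figure D5:**
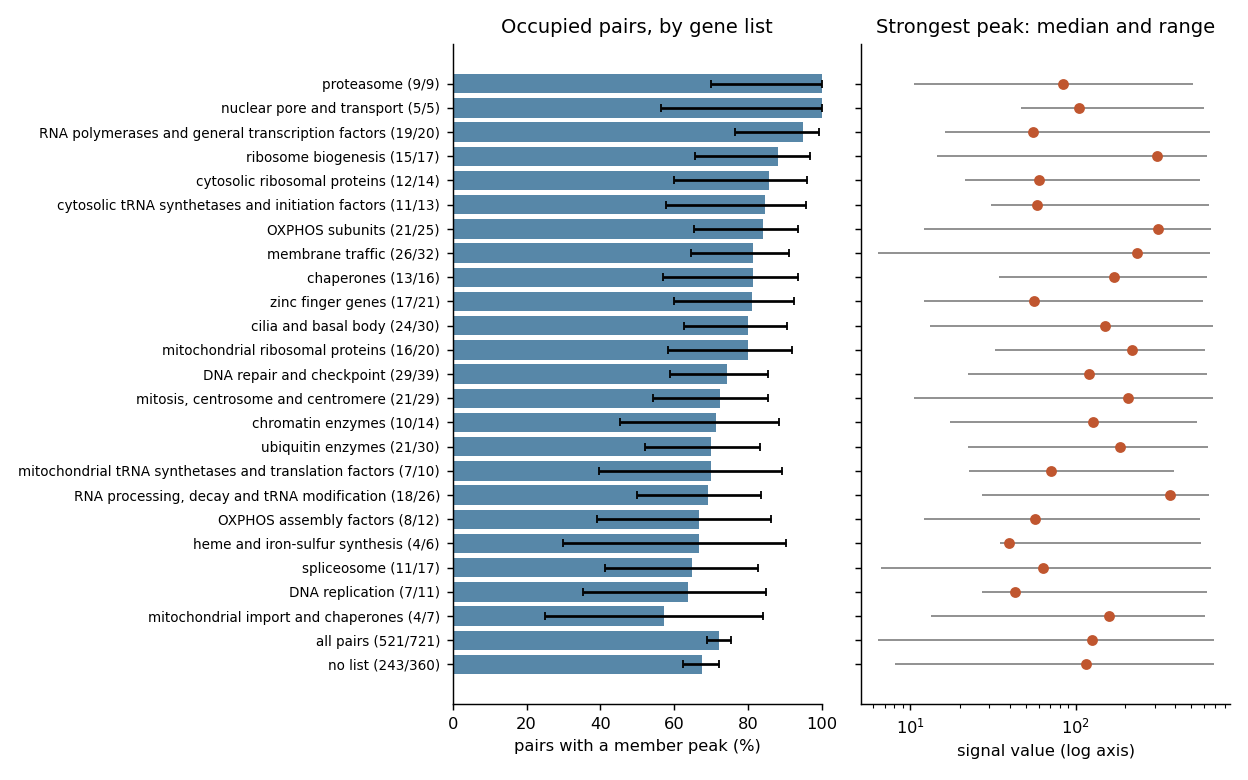
Left, percent of divergent pairs with a member peak for each gene list with at least 5 pairs, with 95% Wilson intervals and counts beside the names. Right, median (circle) and range (line) of the signal value (log axis) of the strongest peak. The intervals cover the 72.3% of all pairs except those of RNA polymerases and general factors, with a lower bound of 76.4%, and of pairs with no listed gene, with an upper bound of 72.1%.

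Some pairs without a member peak held a relaxed peak or had an optimal summit farther out. Of the 200 pairs without a member peak, 86 held a peak in the relaxed list called on the pooled replicates, with a median signal of 12.7. In both replicates 60 held a relaxed peak. Each relaxed list holds 300000 peaks and background, and the share of comparable windows with an entry was not computed. These counts therefore do not show binding. A summit of the optimal set lay over 200 and up to 500 bp outside the starts of 62 pairs. Mcm4/Prkdc, a subunit of the replicative helicase and the catalytic kinase of end joining, had a summit of 628 at 419 bp outside, and Mrps12/Sars2, of mitochondrial translation, one of 461 at 273 bp. At Aimp2/Pms2 the summit was 292 bp outside with 468. The 24 member peaks over 150 and up to 200 bp outside the starts had a median of 33.4, and the 27 peaks just outside the limit, up to 250 bp, had 33.1. By contrast 131 pairs had no optimal summit within 1000 bp outside, among them Hnrnpa2b1/Cbx3, whose nearest summit was 39282 bp away.

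Some well-known divergent pairs were no members, because their annotated starts overlap. Hspd1/Hspe1, the mitochondrial chaperonin and its cochaperonin, overlap by 95 bp and had a peak of 404 with its summit 41 bp from the start of Hspd1, with 214 in replicate 1 and 191 in replicate 2. Ppat/Paics, enzymes of purine synthesis, overlap by 276 bp and had a peak of 482. Its replicates had 259 and 226. These peaks were counted in no share above.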

How the data were processed

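Per the text notes deposited with the samples, the authors called a relaxed list of 300000 peaks and background per replicate and for both replicates pooled, each with a control, on mm10, and selected the conservative and optimal sets by irreproducible discovery rate. The deposited signal value of each peak has no stated scaling, and the deposited rank score of the optimal set, 1000 at most, served only as a description. Aligner, peak caller and read numbers, not given in the sources used here, leave depth unknown. The control library was not analysed here. What the control and the caller's threshold did to weak peaks could therefore not be checked.

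Gene ends were those of RefSeq on GRCm38.p6, and the TSS was the outer 5′ end. Strand came from the RefSeq promoter table (16457 genes) or from GENCODE vM1 by symbol (3538) or synonym (368), and 302 genes without strand were left out. Where a TSS had several partners the closest was kept, which left 721 of 728 pairs. Motifs were searched in the RefSeq promoter window nearest to each TSS, at most 500 bp away, in 14217 windows. Sequences are RefSeq's, on GRCm38.p6. Pair finding and peak assignment were tested on made-up positions with known answers. Shares carry 95% Wilson intervals for counting error alone. A mean ± SD is over the 2 replicates, biological per the labels, and no test was made, as the design has 1 group. Python 3.11.15, numpy 2.4.6, pandas 2.3.3 and scipy 1.17.1 were used.

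The members, the 27 gene lists and the 7 motifs were chosen with earlier results of these data known. Named pairs were the 12 strongest seen in both replicates, the strongest and the first unoccupied pair of each list, the 5 weakest, the 5 closest with a peak, the 5 of highest summed signal with 2 or more peaks, and 11 well-known pairs, 1 of which is not reported here; Surf1/Surf2 and Gabpa/Atp5j, whose starts overlap by 238 and 966 bp, and Polg/Fanci, whose starts lie 75599 bp apart, were no members. Other pairs were named after their values were seen. Alternatives were other peak sets, single replicates, spacings, margins, start sites, chromosomes and motif rules.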

Additional observations from a re-analysis of the deposited data

How the results depend on the processing

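Of 82 recomputed values 48 stayed within the interval of the reported value, or within the replicate spread for the correlation with spacing, and 34 moved. Keeping only the strongest peak of each pair cannot change the correlation with spacing or the occupancy of mitochondrial pairs. Both are counted in the 48 and are no checks. The share of optimal peaks at divergent pairs, 3.30%, was 5.05% among peaks above the median signal, 3.02% and 2.66% for starts at most 500 and 300 bp apart, 2.97% and 3.97% with summit margins of 100 and 500 bp, 4.04% with overlapping starts added and 4.68% on mm9, and it ran from 3.25 to 3.30% with 1 replicate left out. The share of pairs with a peak, 72.3%, was 58% above the median signal, 67.1% and 80.9% with margins of 100 and 500 bp, 63.6% on mm9, and 72.8 to 73.1% without 1 replicate. Members above the median of other promoter peaks, 55.3%, stayed between 53.3 and 58.7% under all settings run, with 54.5 to 55.6% without 1 replicate. The correlation of signal with spacing, -0.022, stayed between -0.0526 and 0.00581: it was -0.0415 in the conservative set, -0.0474 above the median signal, 0.00581 and 0.00311 for starts at most 500 and 300 bp apart, -0.00843 and -0.0526 with margins of 100 and 500 bp, 0.00173 with overlapping starts, -0.036 on mm9, -0.00491 with the starts of the promoter table, and -0.0516 to -0.0415 without 1 replicate, so its sign rests on the setting. Summits between the starts, 42.8%, were 37.9% for starts at most 300 bp apart, 47.7% and 35.6% with margins of 100 and 500 bp, 56.4% on mm9 and 55.3% with the starts of the promoter table, and 40.4 to 42.2% without 1 replicate. Occupancy of pairs with a mitochondrial gene, 77.2%, was 65.8% above the median signal, 88.6% with a margin of 500 bp and 85.7% with the starts of the promoter table, and 78.5 to 81.0% without 1 replicate. The exact site in 11.7% of occupied pairs became 41.1% with up to 1 mismatch. Recurrence of 92.3% became 69.8% with 8628 top peaks per replicate, 86.3% with each replicate peak counted once and 83.5% with an overlap of at least 50%. A margin, a spacing limit or a signal threshold changes which peaks count by construction; for the other settings the cause was not tested. The start sites of the promoter table and the single count of replicate peaks were chosen as alternatives after the data were seen. No paired analysis was possible because the series has 1 group.

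Limits are that depth and the scale of signal are unknown, that peaks weaker than the optimal threshold are not members, that 64.6% of pairs had both promoter windows, and that 1 annotated start per gene stands for all its starts.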
